A study of Mus musculus with 3 samples.

Results

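The miR-23, miR-27 and miR-24 group comprises 5 mature microRNAs (miRNAs), namely miR-23a-3p (MIMAT0000532), miR-23b-3p (MIMAT0000125), miR-27a-3p (MIMAT0000537), miR-27b-3p (MIMAT0000126) and miR-24-3p (MIMAT0000219). They were defined by accession number, as miRNAs of a pair of paralogous clusters, among 1900 mature accessions in a count table of small RNA from mouse heart. They filled 6 rows of that table, because miR-24-3p has 2 rows, and rows of 1 accession were summed. The libraries came from wild-type C57BL/6 hearts on postnatal day 1 (P1), day 7 (P7) and day 28 (P28), in a study of miR-128 and of the cardiomyocytes (CMs) that leave the cell cycle after birth. The labels name the tissue as heart, whereas the text of the study names cardiac ventricles, and neither states the number or the sex of the animals behind a library. Each age had 1 library, so that every difference below is between single libraries and has no replicate check.

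Mature miRNAs are cut from hairpin precursors and guide the silencing machinery to messenger RNAs, mainly through the seed, which is made of bases 2 to 8. MiR-23, miR-27 and miR-24 are transcribed together from a pair of paralogous clusters, so that a single primary transcript can give rise to one miRNA of each seed family. In blood vessels, miR-23 and miR-27 are known for promoting endothelial sprouting through inhibitors such as Sprouty2 and Sema6a. In CMs, miR-23a has been studied as a pro-hypertrophic miRNA that represses the ubiquitin ligase MuRF1, and miR-24 as a repressor of junctophilin-2, which holds the T-tubule close to the sarcoplasmic reticulum. Whole hearts contain both cell types, and a larger share of cells that make a miRNA cannot be told apart here from more of it per cell.

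The sequences show which members share a seed and which can be separated by their bases. They were read from RefSeq (GRCm38.p6, the assembly known as mm10), which holds mature entries for 4 of the 5 members, with miR-23b-3p being the other one. The seed is in capitals.

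miR-23a-3p: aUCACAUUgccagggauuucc

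miR-27a-3p: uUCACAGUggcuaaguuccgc

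miR-27b-3p: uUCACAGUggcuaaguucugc

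miR-24-3p: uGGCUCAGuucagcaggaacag

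MiR-27a-3p and miR-27b-3p have the same seed and are identical at 20 of 21 bases. The difference is C19U, with positions counted from 1 at the 5′ end and the base of miR-27a first. Of 1679 mature mouse names in the RefSeq table, the miR-27 seed occurred in these 2, the miR-23a seed in 1 and the miR-24 seed in 5. The count for the miR-23a seed leaves out miR-23b-3p, which has no mature entry there. The miR-27 seed also overlaps the 5′ end of miR-128-3p, the miRNA that the study manipulates. In the next pair of lines, capitals mark the longest run that miR-27b-3p and miR-128-3p have in common.

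miR-27b-3p: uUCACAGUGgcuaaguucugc

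miR-128-3p: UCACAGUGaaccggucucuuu

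The run is 8 bases long, from base 2 to 9 of miR-27b-3p and from base 1 to 8 of miR-128-3p, so that both seeds lie in it, displaced by 1 base. It occurs in 6 of the 1679 mature names (0.357%). This is a description of the letters, and targets were not examined.

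The a cluster lies on the plus strand of chromosome 8 (GRCm38), with Mir23a at chr8:84208518-84208592, Mir27a at chr8:84208672-84208758 and Mir24-2 at chr8:84208815-84208921. It spans 404 bases. In GENCODE M21, Mir23a and Mir27a lie outside any other gene, and the last 2 bases of Mir24-2 overlap an exon of the long noncoding RNA Gm26532. The b cluster lies on the plus strand of chromosome 13 and spans 792 bases, with Mir23b at chr13:63300484-63300557, Mir27b at chr13:63300712-63300784 and Mir24-1 at chr13:63301208-63301275. It is inside the protein-coding gene 2010111I01Rik (also named Aopep, an aminopeptidase), on the same strand. Mir23b is intronic there, whereas Mir27b and Mir24-1 overlap exons of noncoding or nonsense-mediated decay transcripts of that gene. The 3 hairpins also lie in an intron of Fancc on the opposite strand.

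**Figure D1:**
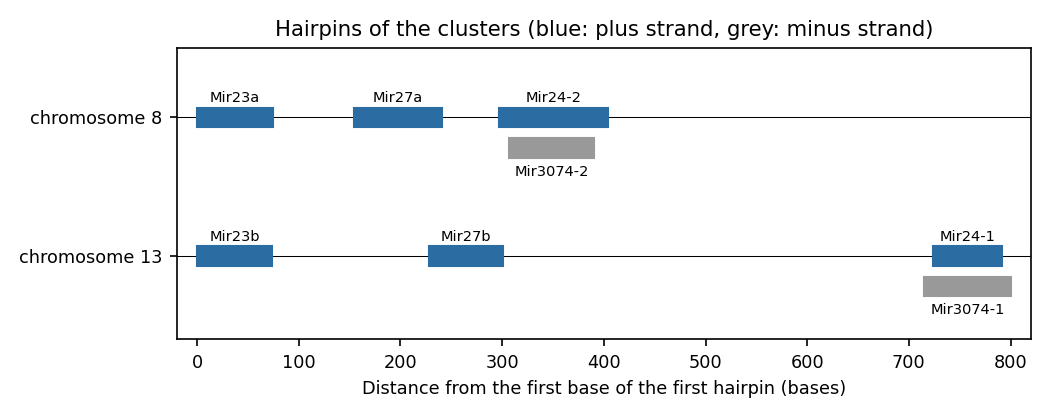
Map of the hairpins, with distance in bases from the first base of the first hairpin on the x axis and 1 line for each cluster; blue boxes are on the plus strand and grey boxes on the minus strand. The hairpins lie in the same order in both clusters, over 404 bases on chromosome 8 and 792 bases on chromosome 13, and each miR-24 hairpin has a Mir3074 hairpin opposite it.

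MiR-24-3p is encoded in both clusters. In the hairpins below, which are printed because they decide what a read can tell about its origin, capitals mark the mature sequence.

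Mir24-1: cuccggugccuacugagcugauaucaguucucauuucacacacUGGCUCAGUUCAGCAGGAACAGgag

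Mir24-2: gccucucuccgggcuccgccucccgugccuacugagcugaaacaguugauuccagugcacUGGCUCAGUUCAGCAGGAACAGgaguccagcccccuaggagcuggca

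The 2 hairpins are identical over a run of 28 bases that holds the 22 bases of miR-24-3p. A read inside that run has no base by which it could be placed at 1 copy. In the table the 2 rows of miR-24-3p were nearly even. The first row held 2380 of 4758 reads on day 1 (50.0%, 95% Wilson interval 48.6 to 51.4), 5211 of 10598 on day 7 (49.2%, 48.2 to 50.1) and 4174 of 8514 on day 28 (49.0%, 48.0 to 50.1). The table does not state which row belongs to which cluster, and whether a read was counted at 1 copy or at both is not given in the sources used here. The level of miR-24-3p is therefore given as the sum, and the level would be that of 1 row if each read had been counted at both copies. In that case the intervals that use the sum would be too narrow.

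A further uncertainty concerns the other strand. On both chromosomes miR-3074-5p is annotated opposite miR-24-3p and overlaps it by 20 bases. The accession MIMAT0014856, which the table pairs with no name, had 2 rows whose counts were identical to those of the 2 miR-24-3p rows in all 3 libraries. Strand use in the counting is not given in the sources used here, and reads from a miRNA and its antisense partner cannot be told apart without it. The same reads thus stand in the library totals under both accessions. Among the rows of the other 4 members, the closest match to any row of the table differed by up to 9.54% in a library, and that match was between miR-23a-3p and miR-23b-3p.

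Library totals were 1944237 counts for P1, 2465680 for P7 and 2842526 for P28. Counts were divided by these totals and given as CPM, which sum to 1000000 in a library, and 3 counts correspond to between 1.06 and 1.54 CPM. All intervals are 95% intervals that cover counting error only and not variation between hearts. Whether reads amplified from 1 molecule were collapsed is not given in the sources used here. If they were not, the intervals are too narrow. The 5 members together made up 0.789% of the counts on day 1 (Wilson interval 0.777 to 0.802), 1.41% on day 7 (1.40 to 1.43) and 1.16% on day 28 (1.15 to 1.18). All 5 reached the mean of 10 CPM over the libraries that was required for a comparison, as did 279 of the 1900 mature accessions.

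MiR-27b-3p was the most abundant member, at 4065 CPM on day 1 (7903 reads, 3976 to 4155), 7364 CPM on day 7 (18158 reads, 7258 to 7472) and 5701 CPM on day 28 (16205 reads, 5614 to 5789). It was lowest at P1 and highest at P7, with no overlap between the 3 intervals. By mean level it ranked 20th of the mature accessions.

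MiR-24-3p followed with the same order of ages. It was at 2447 CPM on day 1 (4758 reads, 2379 to 2518), 4298 CPM on day 7 (10598 reads, 4217 to 4381) and 2995 CPM on day 28 (8514 reads, 2932 to 3059).

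MiR-27a-3p, the paralog of miR-27b-3p in the chromosome 8 cluster, was at 411 CPM on day 1 (799 reads, 383 to 440.5), 855 CPM on day 7 (2107 reads, 819 to 892) and 1239.7 CPM on day 28 (3524 reads, 1199.5 to 1281). In contrast to its paralog, it was highest at P28. Its rank among all mature accessions went from 83 on day 1 to 58 on day 7 and 38 on day 28.

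The miR-23 paralogs had similar levels. MiR-23a-3p was at 479.9 CPM on day 1 (933 reads, 450.1 to 512), 787 CPM on day 7 (1940 reads, 753 to 823) and 896 CPM on day 28 (2548 reads, 862 to 932). MiR-23b-3p was at 491 CPM on day 1 (954 reads, 461 to 523), 818 CPM on day 7 (2018 reads, 784 to 855) and 811 CPM on day 28 (2305 reads, 778 to 845). The intervals of the 2 paralogs overlapped at P1 and P7 and not at P28, where miR-23a-3p was higher. At P7 the interval of miR-27a-3p overlapped those of both miR-23 paralogs, but overlap of separate intervals does not settle an order. Compared directly, miR-27a-3p had 1.09 reads per miR-23a-3p read at that age (1.02 to 1.16). Levels of different miRNAs also depend on how well each is ligated and amplified, and miRNAs of this group differ by at most 1 base in length in the RefSeq entries.

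**Figure D2:**
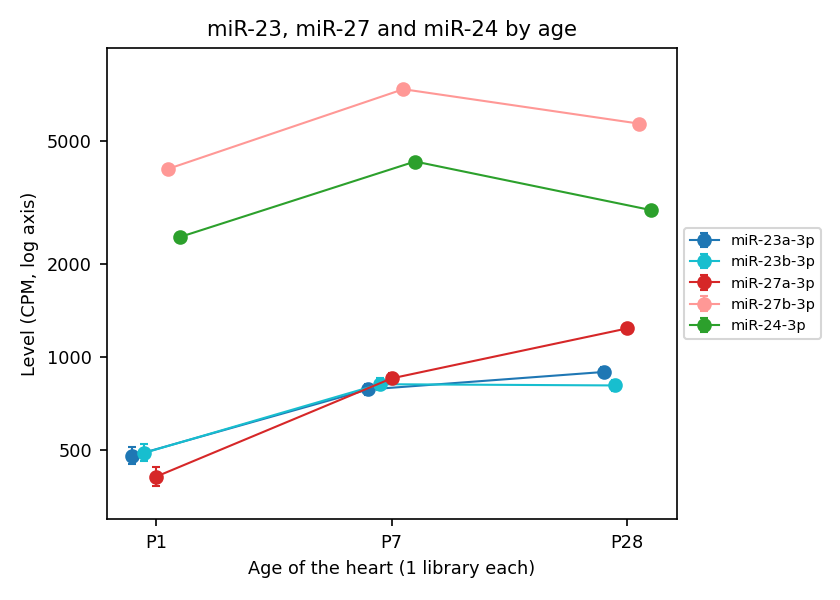
Level in CPM on a log axis against age, with 1 library per age; points are the 5 members and bars are 95% Wilson intervals for counting error. MiR-27b-3p and miR-24-3p peak at P7, at 7364 and 4298 CPM, whereas miR-27a-3p is highest at P28, at 1239.7 CPM.

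The first comparison asked how the group differed between P1 and P7, the week in which most CMs leave the cell cycle. All 5 members were higher in the P7 library. The log2 ratio of CPM (with 0.5 reads added to each count) was 1.06 for miR-27a-3p (95% Clopper-Pearson interval 0.94 to 1.18), 0.86 for miR-27b-3p (0.82 to 0.90) and 0.81 for miR-24-3p (0.76 to 0.86). It was 0.74 for miR-23b-3p (0.63 to 0.85) and 0.71 for miR-23a-3p (0.60 to 0.83). The members thus moved within a narrow range, between 1.64-fold and 2.08-fold, and their sum was 1.79-fold higher at P7.

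With at least 2-fold taken as a call, 1 member (miR-27a-3p) was called higher and 0 were called lower at P7 against P1. Over all 279 accessions compared, 11.1% were called higher and 11.5% lower. The interval of miR-27a-3p included 2-fold, and the call was lost with the size factors of DESeq2, where its log2 ratio was 0.97. The median log2 ratio was 0.81 for the members and 0.03 for all accessions. The direction of each member was the same under the 4 other scalings, with ratios between 0.62 and 1.19. The members lay above 77.1% to 90.3% of all accessions in this comparison.

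The second comparison, P28 against P7, divided the group. The log2 ratio was 0.54 for miR-27a-3p (0.46 to 0.62) and 0.19 for miR-23a-3p (0.10 to 0.27), both of the chromosome 8 cluster. For miR-23b-3p it was -0.01 (-0.10 to 0.07). It was negative for miR-27b-3p, at -0.37 (-0.40 to -0.34), and for miR-24-3p, at -0.52 (-0.56 to -0.48). In fold terms, the P28 library held 1.45 times the P7 level of miR-27a-3p and 0.774 times that of miR-27b-3p.

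These signs have to be read against the whole library. The median log2 ratio of all 279 accessions was -0.79 at P28 against P7, and 119 of them (42.7%) were called lower by at least 2-fold against 8 (2.87%) called higher. By library totals 0 of the 5 members were called in either direction. Under TMM and under DESeq2 size factors 1 (miR-27a-3p) passed 2-fold, with log2 ratios of 1.13 and 1.34. Among all 279 accessions, 31 were called higher under TMM and 43 under DESeq2 size factors. Relative to that median, the 5 members were higher at P28, by 1.33 for miR-27a-3p, 0.98 for miR-23a-3p, 0.78 for miR-23b-3p, 0.42 for miR-27b-3p and 0.27 for miR-24-3p on the log2 scale. TMM scaling moved all ratios of this comparison upward by 0.60 and DESeq2 size factors by 0.80. Under these scalings the log2 ratios of miR-27b-3p and miR-24-3p turned positive, at up to 0.43 and 0.28, and that of miR-23b-3p did so there and with the 10 most abundant accessions left out of the totals (0.34 to 0.79), whereas those of miR-27a-3p and miR-23a-3p were positive under every scaling. The lower level of miR-27b-3p and miR-24-3p at P28 than at P7 is therefore a statement about shares of the library. All members had mean levels over 100 CPM, and the median of the 134 accessions in that range was -0.52. Those 134 include miR-24-3p and the accession that repeats its counts, both at -0.52, and the median is their own value. MiR-24-3p thus lay in the middle of that range and was not higher than its median, which is not a comparison with an independent set.

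**Figure D3:**
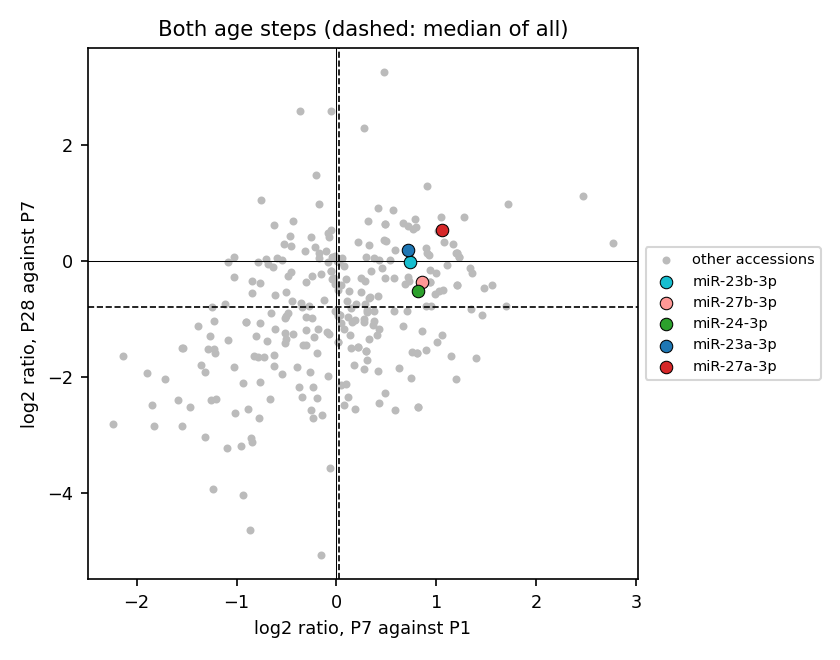
Log2 ratio of P28 against P7 on the y axis and of P7 against P1 on the x axis for the 279 accessions compared; coloured points are the 5 members and dashed lines are the medians of all accessions. The members lie to the right of the vertical median of 0.03 and above the horizontal median of -0.79, with miR-27a-3p the farthest on both axes; the P7 library enters both axes.

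Across the whole interval, from P1 to P28, all 5 members were higher at P28. MiR-27a-3p had the largest log2 ratio, 1.59 (1.48 to 1.71), or 3.02-fold. It was followed by miR-23a-3p at 0.90 (0.79 to 1.01), miR-23b-3p at 0.72 (0.62 to 0.84), miR-27b-3p at 0.49 (0.45 to 0.53) and miR-24-3p at 0.29 (0.24 to 0.34). Only miR-27a-3p was called, as higher, and 0 members were called lower, where 13.6% of all accessions were called higher and 42.7% lower. MiR-27a-3p lay above 96.1% of the accessions compared. The median was 0.72 for the members and -0.74 for all accessions. The number of members called depended on the scaling, with 4 called higher under TMM, 5 under DESeq2 size factors and 3 with the 10 most abundant accessions left out of the totals. Among all 279 accessions, the number called higher went from 38 by library totals to 64, 77 and 59 in the same order. The share of calls that were higher among all accessions moved as well, from 24.2% to 43.8%, 50.0% and 40.4% in the same order. For P28 against P7 that share was 6.30% by library totals and 32.3%, 43.9% and 16.0% under these 3 scalings. For P7 against P1 it was 49.2% by library totals, 46.7% under TMM, 39.7% under DESeq2 size factors and 64.2% with the 10 accessions left out.

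Of all 279 accessions, 76 (27.2%) were above their P1 level at both P7 and P28, as the 5 members were. A smaller set of 44 (15.8%) was higher at each successive age, as miR-27a-3p and miR-23a-3p were.

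**Figure D4:**
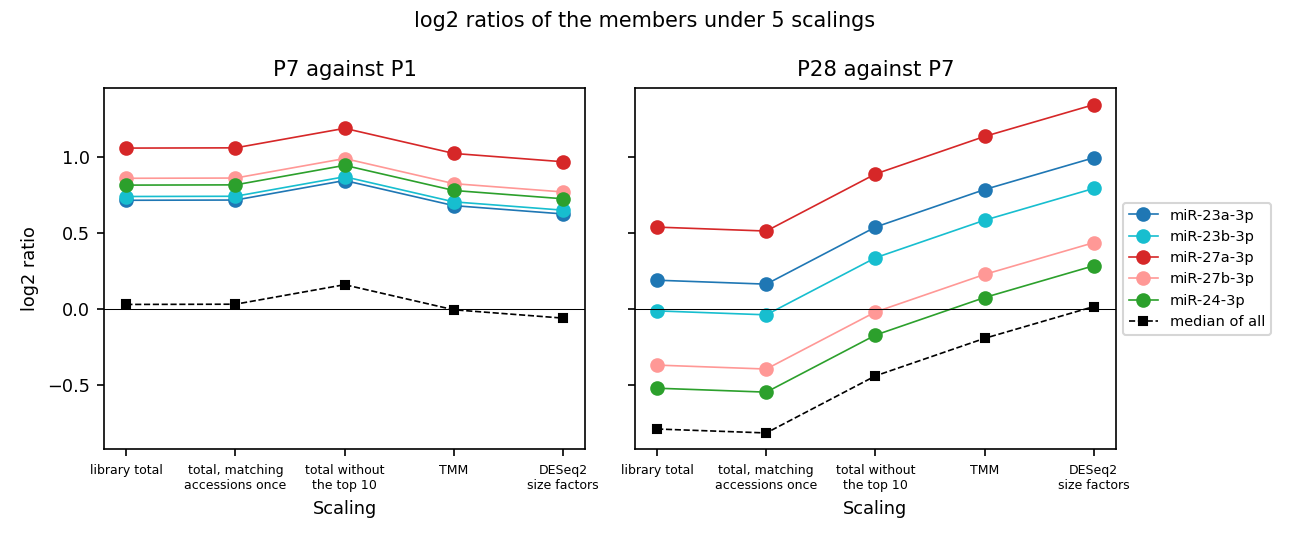
Log2 ratios of the 5 members (coloured) and the median of all 279 accessions (black squares) under 5 scalings, for P7 against P1 on the left and P28 against P7 on the right. Each scaling adds 1 amount to all ratios of a comparison, so that the order of the points is fixed by construction, and the ratios of miR-27b-3p and miR-24-3p at P28 against P7 cross 0 under TMM and DESeq2 size factors.

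Ratios between members of 1 library do not depend on its total, and they were used to compare the paralogs. MiR-27b-3p made up 90.8% of the miR-27 reads on day 1 (Wilson interval 90.2 to 91.4), 89.6% on day 7 (89.2 to 90.0) and 82.1% on day 28 (81.6 to 82.7). It thus outnumbered miR-27a-3p 9.89 to 1 on day 1, 8.62 to 1 on day 7 and 4.60 to 1 on day 28. Most of this shift lay between P7 and P28, where the log2 ratio of miR-27a-3p exceeded that of miR-27b-3p by 0.91 (conditional exact interval 0.82 to 0.99). Between P1 and P7 the excess was 0.20 (0.07 to 0.32).

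The miR-23 paralogs shifted in the same direction at P28, by less. MiR-23b-3p held 50.6% of the miR-23 reads on day 1 (48.3 to 52.8), 51.0% on day 7 (49.4 to 52.5) and 47.5% on day 28 (46.1 to 48.9). The log2 ratio of miR-23a-3p exceeded that of miR-23b-3p by 0.20 at P28 against P7 (0.08 to 0.32). At P7 against P1 the difference was -0.02 with an interval from -0.19 to 0.14, which includes 0. For both families, the paralog encoded on chromosome 8 therefore made up more of the family at P28 than at P7. MiR-23a-3p and miR-23b-3p, like miR-27a-3p and miR-27b-3p, are near-identical, and how the counting assigned reads that fit both is not given in the sources used here, so these shares are uncertain to that extent.

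Members of 1 cluster did not have equal numbers of reads, which also depend on how well each miRNA is ligated and amplified. In the chromosome 13 cluster, miR-27b-3p had 8.28 reads per miR-23b-3p read on day 1 (Clopper-Pearson interval 7.74 to 8.87), 9.00 on day 7 (8.59 to 9.43) and 7.03 on day 28 (6.73 to 7.35). In the chromosome 8 cluster, miR-27a-3p had 0.856 reads per miR-23a-3p read on day 1 (0.778 to 0.942), 1.09 on day 7 (1.02 to 1.16) and 1.38 on day 28 (1.31 to 1.46). The miR-27 to miR-23 ratio was thus lowest at P1 and highest at P28 in the chromosome 8 cluster, and highest at P7 and lowest at P28 in the chromosome 13 cluster. At P28 against P7, miR-27a-3p exceeded miR-23a-3p by 0.35 on the log2 scale (0.23 to 0.47), and miR-27b-3p fell behind miR-23b-3p with a difference of -0.36 (-0.45 to -0.26).

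MiR-24-3p, which comes from both clusters, followed miR-27b-3p more closely than any other member. Between P1 and P7 their log2 ratios differed by 0.04, with an interval from -0.02 to 0.11 that includes 0. Intervals with miR-24-3p use the sum of its rows and would be wider if each read had been counted at both copies. At P28 against P7, miR-27b-3p exceeded miR-24-3p by 0.15 (0.10 to 0.20) and miR-27a-3p exceeded it by 1.06 (0.97 to 1.15). Measured as the distance between the pairs of log2 ratios for the 2 successive steps, miR-24-3p and miR-27b-3p were the nearest pair of members (0.16) and miR-24-3p and miR-27a-3p the farthest (1.09).

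By seed family, miR-27 took 56.7% of the reads of the group on day 1 (55.9 to 57.5), 58.2% on day 7 (57.7 to 58.7) and 59.6% on day 28 (59.1 to 60.1). MiR-24 took 31.0% on day 1 (30.3 to 31.7), 30.4% on day 7 (30.0 to 30.9) and 25.7% on day 28 (25.3 to 26.2). MiR-23 took 12.3% on day 1 (11.8 to 12.8), 11.4% on day 7 (11.0 to 11.7) and 14.7% on day 28 (14.3 to 15.0). The order of the families was the same at each age. With the mean of the 2 miR-24-3p rows in place of their sum, miR-24 was at 18.3%, 17.9% and 14.8% for P1, P7 and P28, which still exceeded miR-23 at P1 and P7 and fell below its 16.8% on day 28.

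**Figure D5:**
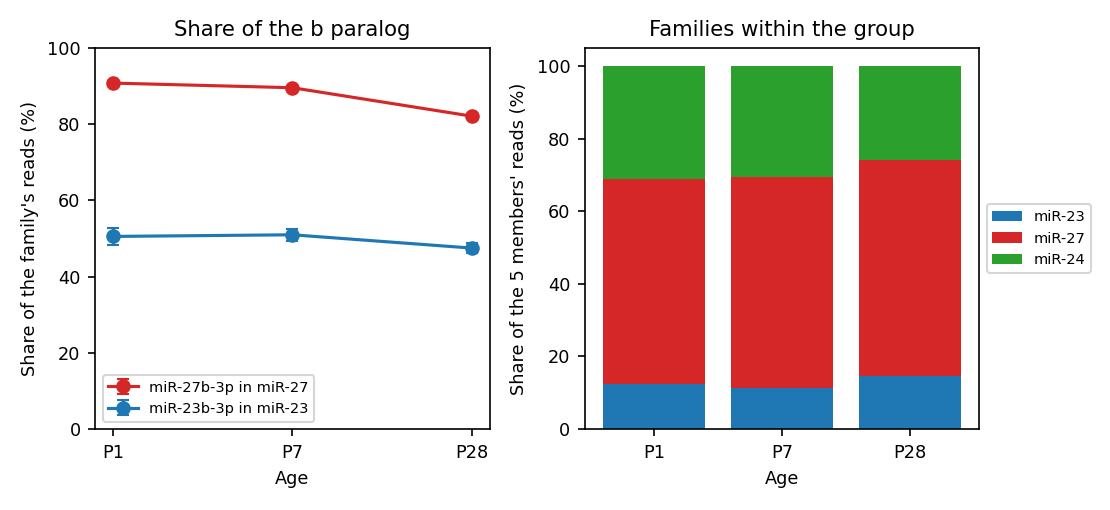
Left, share in percent of the b paralog in the reads of its family against age, with 95% Wilson intervals; right, stacked bars of the share of each seed family in the reads of the 5 members. MiR-27b-3p goes from 90.8% at P1 to 82.1% at P28, miR-23b-3p from 50.6% to 47.5%, and miR-24 from 31.0% to 25.7%.

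The mature accessions most like the group were sought among the 129 others whose mean level reached 100 CPM, by the distance of their log2 ratios for the 2 successive steps from those of the summed members (0.84 for the first step and -0.28 for the second). This measure rests on 3 libraries. The nearest was MIMAT0000137, at a distance of 0.12, with 522 CPM on day 1, 996 CPM on day 7 and 776 CPM on day 28. The second, MIMAT0029895, had nearly the same levels as the nearest, at 522, 998 and 778 CPM for P1, P7 and P28. The fifth, at a distance of 0.244, was MIMAT0014856, whose counts repeat those of miR-24-3p. The 5 nearest therefore cannot be counted as 5 independent matches. The table pairs these accessions with no names.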

How the data were processed

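Small RNA libraries of hearts at P1, P7 and P28 (1 each) were made, per the labels, with a NEBNext kit. The deposited table holds raw read counts per miRBase accession, with no normalization by the authors. The submitters' processing notes name bcl2fastq, TopHat and mm10, and the study states TopHat2 and Bioconductor counting for its sequencing in general. The miRBase release, strand use and assignment of reads that fit several places are not given in the sources used here. Columns were matched to ages by their age code. Stem-loop rows (4.04 to 6.72% of counts) stayed in the totals and were not compared.

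Rows were summed per mature accession and scaled to CPM (counts per 1000000 of the library total). Comparison was limited to accessions whose mean reached 10 CPM, with a pseudocount of 0.5 reads, and called at 2-fold. The quasi-likelihood test of edgeR could not be fitted with 1 library per age, so no p-value is given. The code for calls was run on simulated counts, a check of the code only that says nothing about variation between hearts. The members and the lists were selected with earlier results of these data known. The 5 members were to be named, with the 5 accessions most like them (as measured in the report). No pairing of other accessions with names was used here, so the planned lists (opposite arms, vascular, hypertrophy and cell type marker miRNAs) were not analysed here, and the tissue was not checked against markers. Alternatives were TMM (edgeR 4.0.16), DESeq2 1.42.0 size factors, totals without the 10 most abundant accessions or without stem-loop rows and with matching accessions counted once, a pseudocount of 5 reads, other filters (1 or 100 CPM, or none), folds of 1.5 and 4, and rows taken singly. Python 3.11.15, scipy 1.17.1 and R 4.3.3 were used.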

Additional observations from a re-analysis of the deposited data

How the results depend on the processing

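A value was taken to stay when it lay within its own 95% counting interval (for a median of the members, that of the median member, and for a median of all accessions, within 0.1), and a count when it was within 1.5 times. The width of that interval depends on the reads of each value, so that 1 shift can leave one value in place and move another. By this measure, 45 call counts, medians and shares of the group stayed and 27 moved. Of the values of single members, of families and of all accessions, 114 stayed and 117 moved. The ratios that reached 2-fold by library totals, those of miR-27a-3p, kept their sign. Under TMM, 1 member was higher at P28 against P7 and 4 at P28 against P1, with member medians of 0.58 and 1.28 on the log2 scale. Of all 279 accessions, 31 and 64 were higher in these comparisons. Under DESeq2 size factors, 0, 1 and 5 members were higher in the first step (P7 against P1), the second step (P28 against P7) and over the whole interval (P28 against P1), with medians of 0.72, 0.79 and 1.44. The same size factors gave 23, 43 and 77 of all 279 accessions higher. Without the 10 most abundant accessions in the totals, 3 members and 59 of all 279 accessions were higher at P28 against P1. The member medians were 0.94, 0.34 and 1.20 for the 3 comparisons. The medians by library totals were 0.81, -0.01 and 0.72. These scalings change the total of each library, which shifts all ratios of a comparison by 1 amount. At 1.5-fold, 5 members were higher in the first step and 3 over the whole interval, and at 4-fold 0 were higher in both. Among all 279 accessions, 70 and 53 were higher at 1.5-fold in these 2 comparisons. Totals without stem-loop rows and with matching accessions counted once gave medians of 0.81, -0.04 and 0.70, within those intervals, and the same number of members called. A pseudocount of 5 reads gave medians of 0.81, -0.01 and 0.72 and the same number of members called. For all accessions compared, the calls higher and lower at 4-fold were 2 and 2 for the first step, 4 and 44 for the second, and 9 and 64 for the whole interval. With no filter these were 208 and 188, 111 and 358, and 172 and 357 at 2-fold.

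With the mean of the 2 rows of miR-24-3p, an alternative chosen after seeing the data, the shares at P1, P7 and P28 were 14.6%, 13.4% and 16.8% for miR-23, 67.1%, 68.6% and 68.4% for miR-27, and 18.3%, 17.9% and 14.8% for miR-24. The first and the second row of miR-24-3p used alone gave log2 ratios of 0.79 and 0.84 for the first step, -0.53 and -0.52 for the second, and 0.26 and 0.32 for the whole interval. At P1 miR-27a-3p had the fewest reads of the members (799), and of their ratios to that library its ratios had the widest intervals.

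No paired analysis was possible because the 3 ages have a single library each, which also leaves no replicate to omit.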
